A study of Homo sapiens with 16 samples.

Results

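The sites described here are distal CTCF binding sites that were called in both cell types, but not in every library. They were selected on the CTCF peak calls of 4 ChIP-seq libraries. Merging peaks with 1 bp or more in common gave 29064 sites, and a site was kept when at least 1 MCF10A list and at least 1 G12V list held a peak there, when the 4 lists did not all hold one, and when it did not overlap a promoter. Promoters covered the 1000 bp before and the 500 bp after each annotated start (TSS) of a transcript of any protein-coding gene. These criteria gave 9731 partly shared distal sites, which were 33.5% of all merged sites and 39.05% of the 24920 distal ones. Another 1642 partly shared sites lay at promoters and were left out. For comparison, 6566 distal sites had a peak in all 4 lists (constitutive sites), 937 had peaks in MCF10A lists only, and 7686 in G12V lists only.

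The study mapped CTCF and p53 binding in MCF10A cells before and after transformation by an oncogenic HRas gene. MCF10A is an immortalized, non-transformed human mammary epithelial line, and its parental form made up 1 group. The other group, G12V, was the same line carrying HRas with the G12V change, introduced with a lentiviral vector together with a GFP vector and selected with hygromycin. The labels name no clone and no empty-vector control, so G12V was compared with untransduced cells. Each group had 2 CTCF libraries made with a CTCF antibody from Millipore, and 2 p53 libraries (antibody DO-1) from cells treated with Nutlin, which stabilises p53. The CTCF cells carried no such treatment in the labels. Input libraries entered only as the controls of the peak caller.

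CTCF is a zinc-finger protein that recognises a long, partly degenerate DNA motif and halts the cohesin ring as it extrudes chromatin loops. Its sites lie at insulators, loop anchors and the borders of topological domains, and many of them are occupied in nearly every cell type. Weaker sites, and sites whose motif can be methylated at a CpG, vary more between cells.

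The sequences below show what the CTCF motif looks like at these sites, with the strongest site of each combination of lists by mean rank, taken from GRCh37. Capitals mark the 12-base CTCF core with the fewest mismatches, which was searched on both strands with at most 1 mismatch. Ties within a strand went to the core nearest the summit, and ties between strands to the plus strand. Each sequence is printed on the strand of its core, and a site with no core is printed on the plus strand around its summit.
TPT1 site (chr13:45855351-45855410, minus strand): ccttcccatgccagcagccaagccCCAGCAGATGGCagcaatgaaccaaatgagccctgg
FYB2 site (chr1:57297711-57297770, plus strand): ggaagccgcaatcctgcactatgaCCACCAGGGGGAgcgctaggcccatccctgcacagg
TMEM33 site (chr4:41884943-41885002, minus strand): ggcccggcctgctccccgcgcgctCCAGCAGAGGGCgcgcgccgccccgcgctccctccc
C19orf47 site (chr19:40811384-40811443, plus strand): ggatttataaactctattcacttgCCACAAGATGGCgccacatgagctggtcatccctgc
TEX36 site (chr10:127210906-127210965, plus strand): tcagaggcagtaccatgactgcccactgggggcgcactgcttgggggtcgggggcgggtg
IRX2 site (chr5:2805399-2805458, plus strand): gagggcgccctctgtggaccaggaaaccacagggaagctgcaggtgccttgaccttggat
TMEM209 site (chr7:129795031-129795090, plus strand): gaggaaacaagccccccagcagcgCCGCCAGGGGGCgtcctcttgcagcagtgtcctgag
CDH26 site (chr20:58625407-58625466, minus strand): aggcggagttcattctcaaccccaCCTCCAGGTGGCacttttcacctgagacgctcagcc
The cores of the TPT1 and TMEM33 sites had no mismatch. Counted from 1 at the 5′ end of the core, the other mismatches included C12A at the FYB2 site, A3G at the TMEM209 site and A3T at the CDH26 site. No core was found in the windows of the TEX36 and IRX2 sites.

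Depth and list length differed between the libraries. The CTCF lists held 11346 and 20136 peaks for MCF10A replicates 1 and 2, and 12004 and 27678 peaks for G12V replicates 1 and 2. The ChIP depth recovered from the lists was 11.4 to 18.6 M reads, and the depth at which peaks were called was 10.7 to 13.5 M reads. The library with the most reads, MCF10A replicate 1, had the shortest list. The weakest peak of a list had 8 to 11 ChIP reads at its summit. A site missing from a list was therefore not detected in that library, and was not shown to be unbound. In bulk chromatin, binding in fewer cells and weaker binding per cell cannot be told apart.

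The rule asks for a peak in a list of each cell type. Combinations of lists from 1 cell type alone could therefore not occur, whereas those from 1 replicate number could. Both replicates 2, which had the longest lists, held a peak at 9399 of the 9731 sites (96.6%). Of these, 4809 (49.4% of the partly shared sites) were called in both replicates 2 and in no other library. MCF10A replicate 1 joined both replicates 2 at 2377 sites (24.4%), and G12V replicate 1 joined them at 2213 sites (22.7%). The remaining 5 combinations held 180 sites (MCF10A replicate 1 and G12V replicate 2), 101 (MCF10A replicate 1 with both G12V lists), 38 (MCF10A replicate 2 and G12V replicate 1), 8 (both replicates 1) and 5 (both MCF10A lists and G12V replicate 1). Sites held by both lists of MCF10A and 1 of G12V (2382) were about as many as those held by both lists of G12V and 1 of MCF10A (2314). These counts are fixed by the peak calls that chose the sites, so they are given without a test.

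**Figure D1:**
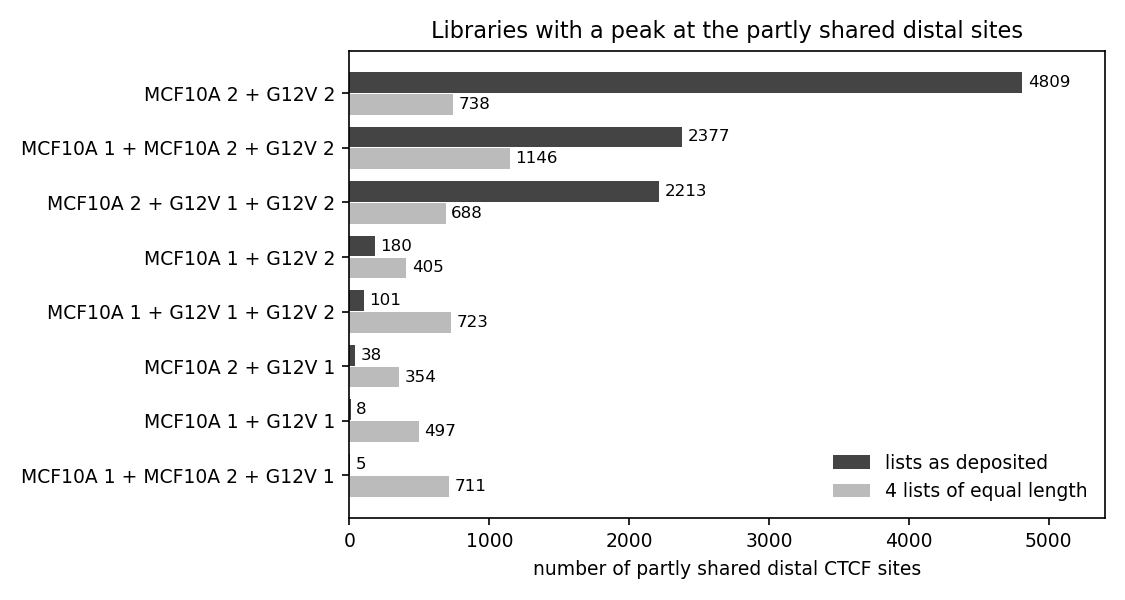
The horizontal axis counts partly shared distal CTCF sites, and each row is 1 combination of libraries that held a peak there, with dark bars for the deposited lists and light bars for 4 lists cut to the 11346 strongest peaks each. The deposited lists put 4809 sites in both replicates 2 alone, whereas lists of equal length spread the sites over all 8 combinations, from 354 to 1146 sites.

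When every list was cut to its 11346 strongest peaks, 5262 sites were partly shared. Both replicates 2 alone then held 738 of them (14.03%), and both replicates 1 alone held 497 (9.45%). The most frequent combination was both MCF10A lists with G12V replicate 2, at 1146 sites (21.8%). The predominance of both replicates 2 was thus seen with lists of unequal length, and not with lists of equal length. Without MCF10A replicate 2 only 2572 sites were partly shared, and without G12V replicate 2 only 2367. This fall follows from the rule, since a site of both replicates 2 alone then no longer has a peak in both cell types.

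The partly shared sites had lower folds, fewer summit reads and lower ranks than the constitutive ones in every library. A stronger peak is called more readily, so this direction is built into the rule, and the values are given as a description with no test. Fold enrichment here is the summit pileup over the local background as the peak caller gave it, and rank percentile puts the strongest peak of a list at the top. In MCF10A replicate 1 the median fold was 6.60 at partly shared and 7.38 at constitutive sites. In MCF10A replicate 2 it was 7.96 and 11.1, in G12V replicate 1 it was 6.70 and 7.46, and in G12V replicate 2 it was 10.3 and 14.7. The gap was wider in the replicates 2, where nearly all partly shared sites had a peak, than in the replicates 1, where 27.4% (MCF10A) and 24.3% (G12V) of them did. In reads, the median summit had 24, 24, 17 and 33 ChIP reads at partly shared sites against 30, 36, 21 and 48 at constitutive sites, in the order MCF10A 1, MCF10A 2, G12V 1 and G12V 2. The median rank percentiles of the partly shared sites were 32.8, 38.1, 37.1 and 52.4 in the same order.

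**Figure D2:**
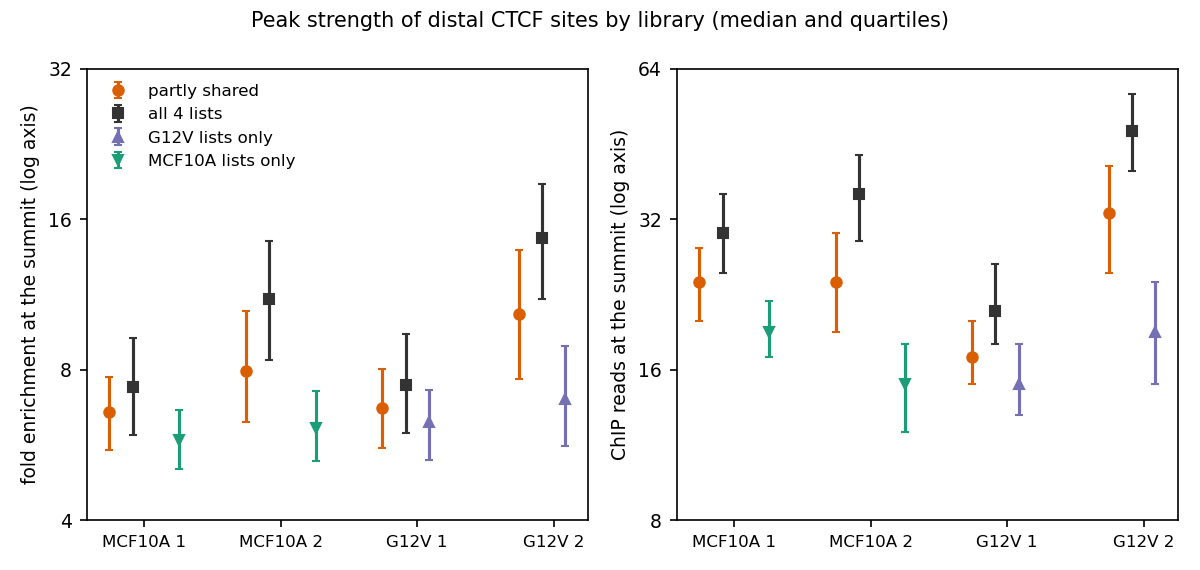
Fold enrichment (left) and ChIP reads at the summit (right) are plotted on log axes for the 4 CTCF libraries, with symbols for the median of each class of distal site and bars from the lower to the upper quartile. Partly shared sites lie between constitutive sites and sites of 1 cell type in each library, as with median folds of 10.3, 14.7 and 7.00 (G12V lists only) in G12V replicate 2.

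Sites of 1 cell type had lower folds again. The median fold was 5.80 and 6.12 in the MCF10A libraries at sites of MCF10A lists only, and 6.30 and 7.00 in the G12V libraries at sites of G12V lists only. This order of the classes follows from the peak calls that define them, and the quartiles of neighbouring classes overlapped. The partly shared sites were also narrower than the constitutive ones after merging, with a median width of 378 bp against 439 bp, and ranged from 223 to 1129 bp.

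For sites of either replicate 2, from a fold of 4 upwards, each other list held the peak more often at sites of higher fold. Below 4 this order did not always hold, as G12V replicate 2 had a peak at 89.2% of the 250 sites of MCF10A replicate 2 with such a fold and at 84.0% of those with a fold of 4 to 6. At the latter sites MCF10A replicate 1, of the same cell type as MCF10A replicate 2, had a peak at 29.1%. Among distal sites of G12V replicate 2 with a fold of 4 to 6, MCF10A replicate 2 had a peak at 32.5%, G12V replicate 1 at 13.0% and MCF10A replicate 1 at 9.46%. At a fold of 16 or more these shares were 96.9%, 75.5% and 77.9%. MCF10A replicate 2 therefore held more of the sites of G12V replicate 2 than the other G12V library did, in each of the 6 ranges of fold. Its list was also longer than that of G12V replicate 1 (20136 and 12004 peaks), and the part of list length in this was not tested. The share of sites that were partly shared was highest, at 49.4%, for a fold of 12 to 16 in G12V replicate 2, and was 30.4% at a fold of 4 to 6 and 33.8% at 16 or more.

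**Figure D3:**
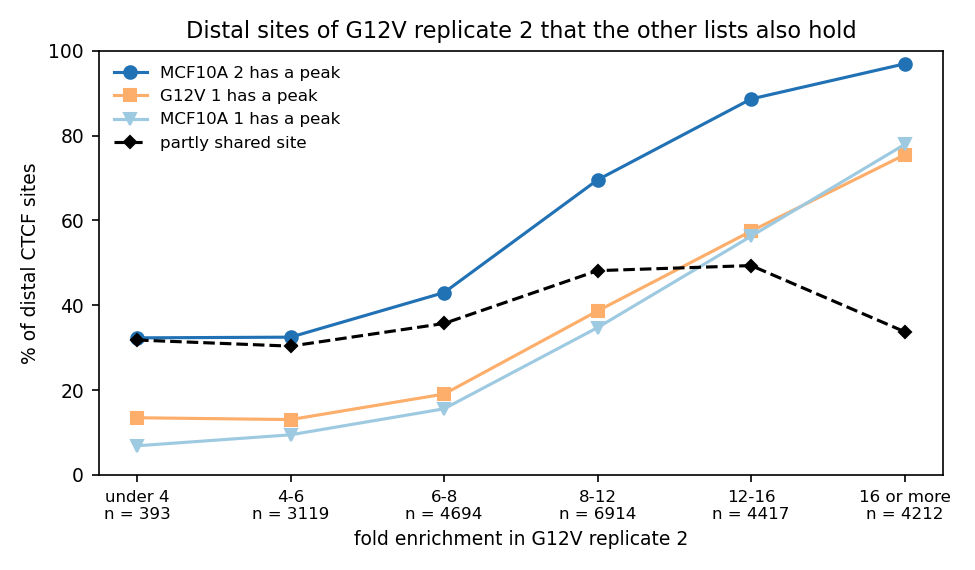
Distal CTCF sites with a peak in G12V replicate 2 are grouped by their fold enrichment there (horizontal axis, with the number of sites), and the lines give the percentage at which each other library had a peak, with a dashed line for the percentage that were partly shared. MCF10A replicate 2 rises from 32.3% to 96.9%, above G12V replicate 1 and MCF10A replicate 1 in all 6 ranges.

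Where a site had a peak in both libraries of a pair, the folds were compared as a description. At the 9399 sites held by both replicates 2, the G12V fold was higher at 69.4%, with a median log2 ratio of 0.34 (quartiles -0.11 and 0.79). The ratio was above 1 on the log2 scale at 15.9% of these sites and below -1 at 2.18%. Constitutive sites had a median of 0.40 over 6566 sites. Between MCF10A replicates 2 and 1, cells of the same type, the median log2 ratio at partly shared sites was 0.47 (2382 sites), and between G12V replicates 2 and 1 it was 0.78 (2314 sites). Both medians between replicates of a cell type were thus larger than the median between the cell types within replicates 2. Within replicates 1 it was 0.15, over the 114 sites held by both. The summits of both replicates 2 lay a median of 23 bp apart at partly shared sites and 19 bp apart at constitutive sites, and within 50 bp at 83.9% and 90.1% of them.

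The next comparison used sequence, which had no part in choosing the sites. A CTCF motif within the 150 bp around the summit was present at 5524 of the 9731 partly shared sites, or 56.8% (exact 95% interval 55.8% to 57.8%). Over all merged CTCF sites the share was 52.3%. Windows 2000 bp to the left and right of the summits held the motif at 1.21% and 1.16% of the partly shared sites. The summits therefore carried the sequence of the factor named in the label far more often than their surroundings. Constitutive sites had a motif at 70.7% (4641 of 6566), which was 13.9 points more (two-sided Fisher's exact test, adjusted p = 2.74e-72). Sites of MCF10A lists only had one at 28.2% (264 of 937, adjusted p = 3.86e-63, Fisher's exact test), and sites of G12V lists only at 38.97% (2995 of 7686, adjusted p = 8.23e-120, Fisher's exact test). These p-values, like the others on sequence and position, are Benjamini-Hochberg values over 20 tests. They count each site as an independent draw and hold no error from culture to culture, and the intervals cover counting error only.

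**Figure D4:**
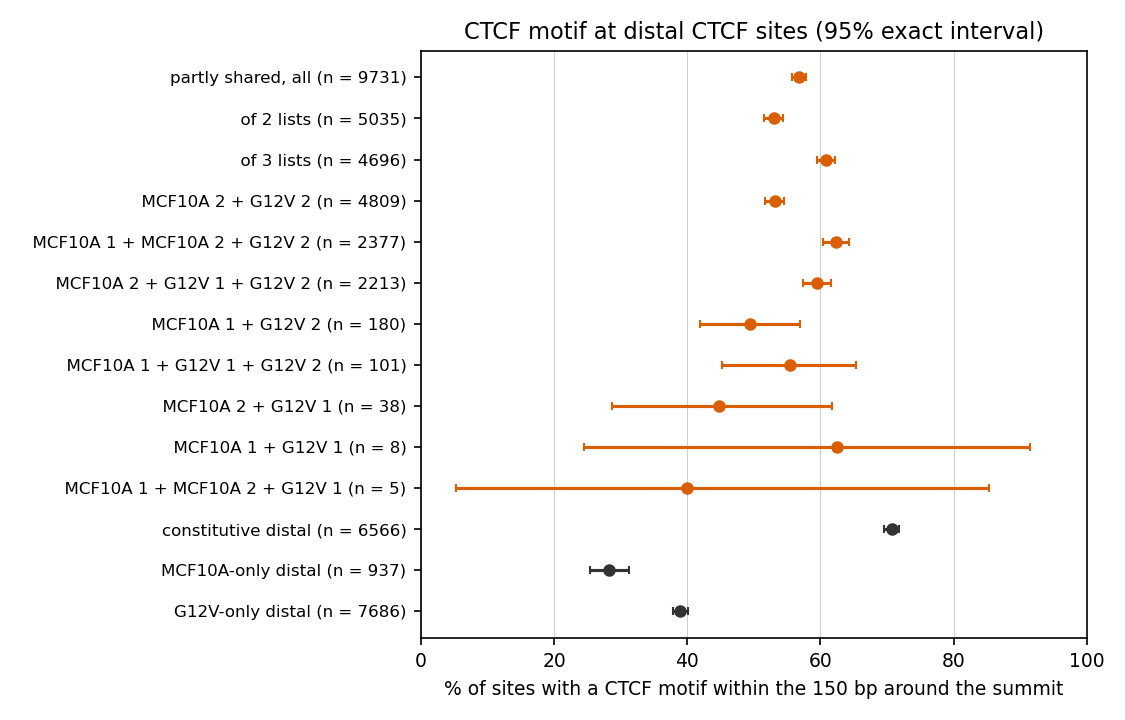
Each point is the percentage of sites with a CTCF motif within the 150 bp around the summit (horizontal axis), with its exact 95% binomial interval, for the partly shared sites, their subsets and combinations of lists (orange) and the other distal classes (black). Partly shared sites lie at 56.8%, below the 70.7% of constitutive sites and above the 38.97% and 28.2% of sites of G12V or MCF10A lists only.

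Within the partly shared sites the motif was more frequent where more lists held the peak. Of the 4696 sites in 3 lists, 60.8% had a motif, against 52.97% of the 5035 sites in 2 lists (-7.87 points, Fisher's exact test, adjusted p = 2.53e-14). By combination, the share was 53.2% in both replicates 2 alone, 62.4% when MCF10A replicate 1 joined them and 59.5% when G12V replicate 1 joined them. The 180 sites of MCF10A replicate 1 and G12V replicate 2 had a share of 49.4% (interval 41.9% to 57.0%). The interval spanned 24.5% to 91.5% for the 8 sites of both replicates 1, so nothing can be read from the smallest combinations.

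Partly shared sites of low fold had a motif less often. In G12V replicate 2 the share rose from 48.4% at a fold of 4 to 6 (947 sites) to 65.5% at 16 or more (1422 sites). In MCF10A replicate 2 it rose from 50.9% to 65.6% between the same ranges. Within the same range of fold, the constitutive sites had the motif more often, with 69.5% against 50.0% at a fold of 6 to 8 in G12V replicate 2, and 72.6% against 65.5% at 16 or more. The intervals did not overlap in these ranges (64.7% to 74.1% against 47.6% to 52.4%, and 70.8% to 74.2% against 62.9% to 67.9%). They did overlap at a fold of 4 to 6 in G12V replicate 2 (56.6%, interval 47.0% to 65.9%, against 45.1% to 51.6%), and below 4 in MCF10A replicate 2 the shares were 48.5% and 47.7%. Folds were not matched within a range, and constitutive sites had the higher median fold in G12V replicate 2 (14.7 against 10.3). The part of fold in the difference was not tested.

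The motifs themselves also differed. A core without mismatch was present at 18.4% of partly shared sites (1787) and at 28.0% of constitutive sites (1841). Among sites with a motif, these were 32.3% and 39.7%. The distance from core to summit had a median of 20 bp at partly shared and 18 bp at constitutive sites, and 61.1% and 67.5% of cores lay within 25 bp. Cores with exactly 1 mismatch had it most often at position 12 (21.8% of 3737 partly shared cores), followed by position 1 (18.2%) and position 3 (15.6%). In constitutive sites position 3 came first (23% of 2800 cores). A mismatch at position 2 was rare in both classes (0.482% and 0.321%). CpG dinucleotides, where CTCF binding can be affected by methylation, occurred within 5.50% of the partly shared cores (304) and 9.93% of the constitutive ones (461). Strand was balanced, with 50.9% of partly shared cores on the plus strand. No test was run on these details of the core.

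Base composition moved with the class. The 150 bp window had a median GC content of 50.0% at partly shared and 56.0% at constitutive sites, with a median of 2 and 4 CpG dinucleotides. The flanks at 2000 bp on the left differed in the same direction (medians of 44% and 48%). Within windows of 45% to 50% GC, 56.2% of 3004 partly shared and 67.6% of 980 constitutive sites had a CTCF motif, and within 60% to 65% GC the shares were 59.5% and 75.1%. The constitutive share was the higher one in each of the 6 ranges from 40% GC upwards. Below 40% GC the order was the reverse (52.5% of 160 partly shared and 42.9% of 7 constitutive sites). The part of base composition in the difference was not tested further.

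AP-1 is the dimer of JUN and FOS proteins that acts at enhancers downstream of RAS signalling. Its motif, TGACTCA or its reverse complement TGAGTCA without mismatch, was searched on both strands of the same window. It was present at 256 partly shared sites (2.63%, interval 2.32% to 2.97%) and at 95 constitutive sites (1.45%), which was 1.18 points fewer (two-sided Fisher's exact test, adjusted p = 8e-07). The share over all merged CTCF sites was 2.22%. Sites of G12V lists only had an AP-1 motif at 2.65%, and sites of MCF10A lists only at 2.88%, and neither share was called different from that of the partly shared sites (adjusted p = 0.973 and 0.837, Fisher's exact test). The flanking windows of the partly shared sites had the motif at 2.47% and 2.71%, and those of the constitutive sites at 2.39% on both sides. The shares at the summits of partly shared sites and in their surroundings were thus close, and the share at the summits of constitutive sites was below that of their surroundings, with no test of either. By GC content, the AP-1 motif was present at 2.76% of partly shared and 2.35% of constitutive sites in windows of 45% to 50% GC, where the intervals overlapped (2.21% to 3.41% and 1.49% to 3.50%), and at 2.97% and 1.60% in windows of 50% to 55% GC. Of the 256 sites, 143 (55.9%) also had a CTCF motif.

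The AP-1 motif and its distance from the summit are shown for the strongest 2 such sites by mean rank, chosen after their values were seen (GRCh37, plus strand). Capitals mark the copy nearest the summit, at 20 and 17 bp from it.
GNA14 site (chr9:80071900-80071954): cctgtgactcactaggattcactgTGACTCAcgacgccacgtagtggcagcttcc
ALDH8A1 site (chr6:134962267-134962321): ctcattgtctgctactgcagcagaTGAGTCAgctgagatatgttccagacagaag
The GNA14 site, in an intron of that gene for a G protein alpha subunit, had a fold of 16.03 in MCF10A replicate 2 and 22.9 in G12V replicate 2. The ALDH8A1 site was intergenic, 287988 bp from that TSS, with folds of 9.33 and 16.1 in MCF10A replicates 1 and 2 and 22.6 in G12V replicate 2. Both also had a CTCF motif.

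p53 peaks were a readout that the choice of sites did not use. A p53 peak of any of the 4 p53 lists overlapped 28 partly shared sites (0.288%, interval 0.191% to 0.416%), close to the 0.313% over all merged CTCF sites. With the sites moved by 10 kb, 10 overlapped a p53 peak (0.103%). Constitutive sites overlapped a p53 peak at 0.411% (27 of 6566), and the difference of -0.123 points missed the threshold (adjusted p = 0.382, Fisher's exact test). Without MCF10A replicate 2 of CTCF it passed (-0.357 points, adjusted p = 0.0117, Fisher's exact test), and without either G12V replicate the sign turned (0.0318 and 0.0556 points). Sites of G12V lists only did so at 0.117% (9 of 7686, adjusted p = 0.0426, Fisher's exact test). That call was lost in lists of equal length (0.285% and 0.283%, adjusted p = 1, Fisher's exact test), with windows around summits (adjusted p = 0.194, Fisher's exact test), with promoters of 5000 bp to either side or from 1 start site per gene (adjusted p = 0.0853 and 0.0584, Fisher's exact tests), without MCF10A replicate 1 (adjusted p = 0.311, Fisher's exact test) and without G12V replicate 2 (adjusted p = 0.210, Fisher's exact test), and the direction turned without MCF10A replicate 2 (-0.139 points). By p53 list, 8 and 7 of the partly shared sites were held by MCF10A replicates 1 and 2, and 5 and 27 by G12V replicates 1 and 2. The p53 list of G12V replicate 2 was the longest, with 2619 peaks, and it alone accounted for 16 of the 28 sites.

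The p53 element, in which a decamer with an invariant C and G occurs in tandem, was searched on both strands with at most 3 mismatches outside those invariant bases. It was present around the p53 summit at 11 of the 28 sites (39.3%), and around the CTCF summit at 0.536% of the 9703 partly shared sites without a p53 peak. A CTCF motif was present at 8 of the 28, and 3 had both. The p53 and CTCF summits lay a median of 79 bp apart. The 2 sites held by all 4 p53 lists are printed with the element in capitals (GRCh37, plus strand).
DCT site (chr13:94997753-94997812): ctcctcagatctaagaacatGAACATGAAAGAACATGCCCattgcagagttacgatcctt
MAP2K6 site (chr17:67603490-67603549): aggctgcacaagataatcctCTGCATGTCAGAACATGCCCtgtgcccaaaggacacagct
The MAP2K6 site was intergenic, 71278 bp from the TSS of this kinase that activates p38. Its CTCF fold was 12.1 in MCF10A replicate 2 and 12.02 in G12V replicate 2, with no peak in the replicates 1. Its p53 fold was 28.0 and 10.4 in the MCF10A replicates and 39.5 and 49.1 in the G12V replicates. The site nearest DCT, 122289 bp from its TSS, lies in an intron of GPC6, a glypican gene. It had CTCF folds of 7.68 and 11 in replicates 2, and p53 folds of 13.6, 14.2, 7.76 and 26.5 in the same order of libraries. Neither site had a CTCF motif.

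The other sites with a p53 peak included intronic ones of HES2 and CALD1, each held by 3 p53 lists and by the CTCF lists of both replicates 2. Their p53 folds in G12V replicate 2 were 21.0 and 22.9, and their CTCF folds there were 8.84 and 8.77. ATF3, a stress-induced transcription factor gene and p53 target, had an intronic site (chromosome 1, 212769211 to 212769542) that overlapped a p53 peak of G12V replicate 2 only, at a p53 fold of 28.4 and CTCF folds of 8.25 and 9.07 in MCF10A and G12V replicates 2. At the ATF3 site the summits of p53 and CTCF lay 540 bp apart. These 3 sites were chosen after their values were seen.

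The partly shared site of the lowest fold in MCF10A replicate 1 (2.83) lay in an intron of SPI1 and had no p53 peak, whereas those of the other 3 libraries were also called in p53 ChIP. The lowest folds in G12V replicates 1 and 2 (1.61 and 1.70) belonged to neighbouring sites on chromosome 21 (9825368 to 9826469 and 9826730 to 9827576), more than 1 Mb from the nearest TSS, that of TPTE. Both were held by 3 p53 lists at folds of 1.49 to 3.97. The lowest fold in MCF10A replicate 2 (1.42) was at an intronic site of PMF1 (chromosome 1, 156186233 to 156186692), which also had a p53 peak (fold 1.82 in MCF10A replicate 2). At the PMF1 site the p53 and CTCF summits lay 1 bp apart. These low folds came with many summit reads. The chromosome 21 sites had 242 reads in G12V replicate 1 and 395 in G12V replicate 2, and the PMF1 site had 246 in MCF10A replicate 2. The medians of partly shared sites in these libraries were 17, 33 and 24 reads. The local background at these sites was thus high, and their overlaps do not show binding of both factors. The highest folds were 15.1 in MCF10A replicate 1 (DOK7 intron), 30.2 in MCF10A replicate 2 (LIMCH1 intron), 17.3 in G12V replicate 1 (SHANK2 intron) and 34.3 in G12V replicate 2 (the TMEM33 site printed above).

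Values near the limits of the rule were as follows. The weakest peaks at partly shared sites had a −log10 q of 1.43 in MCF10A replicate 1 (TLL2), 1.56 in MCF10A replicate 2 (CRIM1), 1.33 in G12V replicate 1 (MYCN) and 1.87 in G12V replicate 2 (OXCT1). The TLL2 and MYCN sites also had peaks in both replicates 2 and would be partly shared without the peak named. Only the CRIM1 and OXCT1 sites owed their class to it. A constitutive site near FAM161A and another near SAMM50 counted as constitutive through a peak with a −log10 q of 1.33 in G12V replicate 1. At the promoter border, the site in DIS3L2 lay 1 bp and that in EVA1A 2 bp outside a promoter, whereas the sites at EIF3B and TYRP1 overlapped one by 3 and 4 bp and were left out.

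In the genome the partly shared sites lay a median of 19.8 kb from the nearest protein-coding TSS (quartiles 6.80 and 60.7 kb), compared with 15.5 kb for constitutive sites, 25.5 kb for sites of G12V lists only and 33.0 kb for sites of MCF10A lists only. The nearest site with a peak in all 4 lists, here with promoter sites included, was a median of 95.6 kb away. It was within 10 kb for 11.7% of the partly shared sites. These values were 122 kb and 9.08% for sites of G12V lists only, and 127 kb and 9.07% for sites of MCF10A lists only. The partly shared sites lay inside a protein-coding gene at 45.4% (4422 sites), against 43.7% of constitutive sites (Fisher's exact test, adjusted p = 0.0654) and 47.4% of sites of G12V lists only (adjusted p = 0.0265, Fisher's exact test). The share over all merged CTCF sites, promoters included, was 49.2%. An exon of a protein-coding gene held the centre of 485 partly shared sites (4.98%), fewer than the 6.46% of constitutive sites (adjusted p = 0.000238, Fisher's exact test). Over all merged sites, promoters included, the exonic share was 8.90%. Sites in 2 lists were exonic at 4.35% and those in 3 lists at 5.66% (Fisher's exact test, adjusted p = 0.00938). These differences in position were small, and the exon difference from constitutive sites was not called in lists of equal length (adjusted p = 0.137, Fisher's exact test), with promoters of 5000 bp to either side (adjusted p = 0.329, Fisher's exact test) or without either replicate 2 (adjusted p = 0.808 without that of G12V and 0.0640 without that of MCF10A, Fisher's exact tests). The exon difference between sites in 2 and 3 lists was not called in the first 2 of these settings (adjusted p = 0.584 and 0.139, Fisher's exact tests). The gene body difference from constitutive sites passed without G12V replicate 1 (2.62 points, adjusted p = 0.00260, Fisher's exact test) and changed sign without MCF10A replicate 2 (-0.633 points). That from sites of G12V lists only was not called in lists of equal length (adjusted p = 0.0642, Fisher's exact test), without G12V replicate 1 or 2 (adjusted p = 0.312 and 0.443, Fisher's exact tests), or with the other promoter definitions (adjusted p = 0.171 and 0.302, Fisher's exact tests).

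By chromosome, the partly shared and the constitutive sites were spread differently. The share of sites differed on 16 of 23 chromosomes (69.6%; two-sided Fisher's exact test per chromosome, adjusted p under 0.05 over the 23). Read against that share of chromosomes called, a call was the rule and not the exception. Chromosome 1 held 8.62% of partly shared sites (839) and 13.6% of constitutive sites (893), or -4.98 points (adjusted p = 3.03e-22, Fisher's exact test). Chromosomes 17, 19, 20 and 22 also held smaller shares of partly shared sites, as chromosome 22 with 1.63% against 2.76%. Larger shares of partly shared sites were found on chromosomes 2, 3, 4, 6, 7, 13, 18 and X. Chromosome 4 held 4.84% against 2.44% (adjusted p = 1.35e-14, Fisher's exact test) and X held 4.09% against 2.44% (Fisher's exact test, adjusted p = 5.78e-08). The calls for chromosomes 1 and X were kept in the same direction under all 9 alternatives run, and that for chromosome 4 under 8, while those for chromosomes 5, 9 and 16 were kept under 4, 1 and 3. The local background at distal peaks was also higher on chromosome 1, with medians of 2, 2.45, 2.21 and 2.23 scaled reads in MCF10A 1, MCF10A 2, G12V 1 and G12V 2, than on chromosome 4, with 1.14, 1.59, 1.41 and 1.78. Its part in the difference was not tested.

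**Figure D5:**
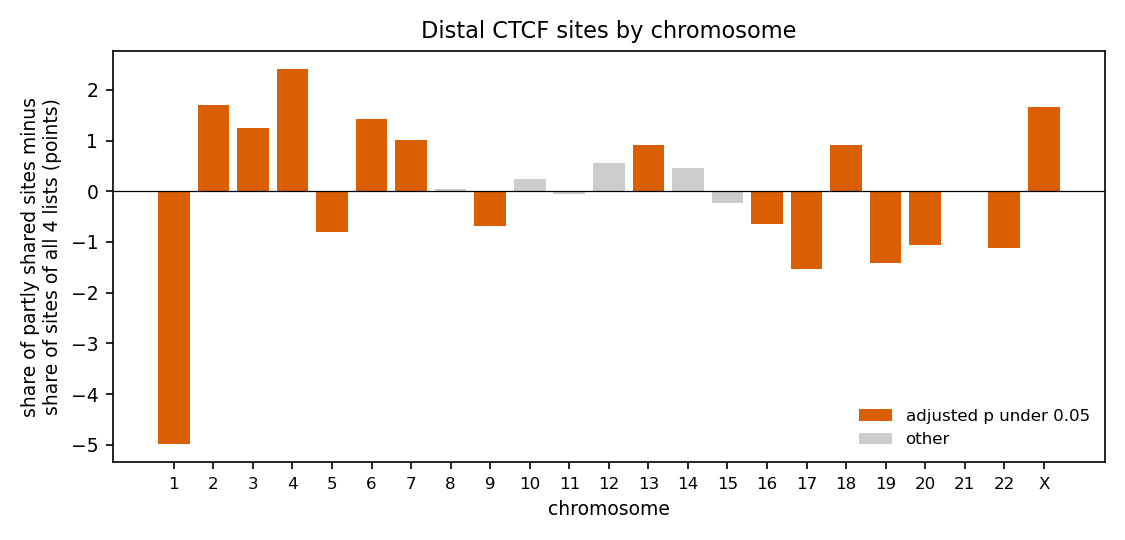
Bars give, for each chromosome (horizontal axis), the percentage of partly shared sites on it minus the percentage of constitutive distal sites on it, in points, with orange bars for an adjusted p under 0.05. Chromosome 1 stands lowest at -4.98 points and chromosome 4 highest at 2.40 points.

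The strongest sites of the 3 large combinations had folds above the constitutive median of 14.7 in G12V replicate 2. The TPT1 site (chromosome 13, 45855197 to 45855575) lies in an intron of GTF2F2, a subunit of the general transcription factor TFIIF, 58265 bp from the TSS of TPT1. It had a fold of 25.2 in MCF10A replicate 2 (52 reads, rank 216 of the list) and 19.7 in G12V replicate 2 (62 reads, rank 1420), and no peak in either replicate 1. The LUM site (chromosome 12, 91502806 to 91503185), in an intron of the gene for the proteoglycan lumican, had folds of 17.6 and 26.4 in the same libraries. Both sites were thus well above the weakest peaks of replicates 2 while missing from both replicates 1.

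The FYB2 site (chromosome 1, 57297480 to 57297931, intergenic) had folds of 10.7, 26.9 and 32.8 in MCF10A replicate 1, MCF10A replicate 2 and G12V replicate 2. It ranked 80 in MCF10A replicate 2 and 149 in G12V replicate 2, but was not called in G12V replicate 1. The DISC1 site (chromosome 1, 231726344 to 231726741), in an intron of the TSNAX-DISC1 readthrough gene, had folds of 7.20, 10.3 and 19.4 in these 3 libraries and no CTCF motif. The TMEM33 site (chromosome 4, 41884775 to 41885204, intergenic) had folds of 17.8, 16.7 and 34.3 in MCF10A replicate 2, G12V replicate 1 and G12V replicate 2, with 55, 34 and 78 reads at the summit. The NOL4 site (chromosome 18, 31902671 to 31903062, intergenic) had folds of 24.7, 10.3 and 19.7 in the same 3 libraries. The missing library of each site is given by the combination it was chosen from.

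The small combinations lacked 1 or both of the replicates 2. KCNT1, a sodium-activated potassium channel, had a site 8850 bp from its TSS (chromosome 9, 138689389 to 138689892) with folds of 8.60, 11.7 and 24.4 in MCF10A replicate 1, G12V replicate 1 and G12V replicate 2. The TEX36 site had folds of 9.33, 10.4 and 22.5 in these libraries. Next to C19orf47 and in CCDC175, sites of MCF10A replicate 1 and G12V replicate 2 had folds of 9.57 and 19.4, and of 7.63 and 19.7. All 4 had no peak in the longer of the MCF10A lists.

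Of the sites without a peak in G12V replicate 2, the longest list, the 38 of MCF10A replicate 2 and G12V replicate 1 had a median fold of 6.68 in MCF10A replicate 2. The 5 sites of both MCF10A lists and G12V replicate 1 had 6.04 there, against 7.96 over all partly shared sites. The sites named here, the strongest by mean rank, were not all below that median. The site nearest IRX2, a homeobox gene, had folds of 16.9 in MCF10A replicate 2 and 8.26 in G12V replicate 1, and that in MAGI2, a scaffold protein gene, 12.4 and 8.92. Both replicates 1 alone held the sites nearest TMEM209 (5.61 in MCF10A and 9.42 in G12V) and in an exon of RASL10A, a small GTPase gene (4.44 and 7.02). The site nearest CDH26, a cadherin, had folds of 5.30, 12.5 and 6.72 in MCF10A replicates 1 and 2 and G12V replicate 1, and that in SNX20, a sorting nexin, 7.13, 7.76 and 6.70.

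Genes with a partly shared site nearby were then counted in 9 lists. Of all 20136 protein-coding genes, 66.9% had a partly shared site within 100 kb of a TSS and 17.0% had one within 10 kb. The counts below are to be read against these values, and no test was run on the lists. A gene near a site is a statement of position, and the files hold no expression.

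Of 10 AP-1 subunit genes, 9 had a site within 100 kb and 3 within 10 kb. JUN, the founding member of the family, had one 1208 bp from its TSS (chromosome 1, 59250776 to 59251125), with folds of 7.20 in MCF10A replicate 2 and 7.98 in G12V replicate 2. JUND had a site of 9.28 and 8.45 in the same libraries, which lies in an intron of IQCN, and BATF a site of 9.20, 6.02 and 10.95 in MCF10A replicate 2 and both G12V libraries. None of these 3 sites had a CTCF or AP-1 motif in its window. Of 9 RAS-MAPK feedback regulators (DUSP, SPRY and SPRED genes, which dampen the pathway), 2 had a site within 100 kb and none within 10 kb. That is 22.2%, and the median distance was 154 kb, compared with 54.5 kb over all genes.

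Of the 12 genes of the EGF receptor family and its ligands, 11 had a site within 100 kb and 2 within 10 kb (16.7%, against 17.0% over all genes). The ligand gene EREG (epiregulin) had an intronic one with a CTCF motif (chromosome 4, 75236600 to 75236942), at folds of 13.3 in MCF10A replicate 2 and 6.10 in G12V replicate 2, and NRG1 (neuregulin 1) an intronic one at 5.27, 10.8 and 18.1 in the MCF10A libraries and G12V replicate 2. At the EREG site the fold was higher in MCF10A replicate 2 while the summit reads were higher in G12V replicate 2 (27 and 38 reads), so fold and reads gave opposite orders there. Of 13 regulators and markers of the epithelial-mesenchymal transition, 10 had a site within 100 kb, and GRHL2, an epithelial transcription factor gene, had one within 10 kb, at folds of 14.7, 6.41 and 20.0 in MCF10A replicate 2 and the G12V libraries.

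Genes of basal epithelial adhesion and keratins, which mark the cell type of MCF10A, had a site within 100 kb for 13 of 15 and within 10 kb for 7 (46.7%). KRT14, a basal keratin, had a site 3708 bp from its TSS (chromosome 17, 39735829 to 39736186) at folds of 10.5, 10.4 and 12.2 in MCF10A replicate 2 and both G12V libraries. KRT5, its partner, had a site 8862 bp away at 7.28 and 6.20 in replicates 2. LAMB3, a laminin chain gene, had an intronic site with a CTCF motif, at folds of 4.46, 5.71 and 5.00 in the MCF10A libraries and G12V replicate 2. ITGA6, the laminin receptor subunit, had a site of 6.82, 10.5 and 10.3 in the same 3 libraries as LAMB3. CDH3 (P-cadherin) had an intronic site of 10.9, 8.60 and 10.5 in the libraries given for KRT14, and the DST site, 1274 bp from that TSS and in an intron of BEND6, had 7.78 and 6.24 in replicates 2. Between replicates 2, the G12V fold was the higher one at KRT14 and the lower one at KRT5, LAMB3, ITGA6, CDH3 and DST. Summit reads gave the opposite order at KRT5 (24 in MCF10A and 32 in G12V), ITGA6 (30 and 32) and CDH3 (29 and 35). They kept the order of the folds at KRT14 (32 and 38), LAMB3 (41 and 34) and DST (22 and 16). No direction can thus be read from the folds of these genes.

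Among 12 CTCF and cohesin genes, 8 had a site within 100 kb and 3 within 10 kb. SMC3, a core subunit of cohesin, had an exonic site with a CTCF motif 1622 bp from its TSS (chromosome 10, 112360271 to 112360589), at folds of 5.09 in MCF10A replicate 2 and 13.6 in G12V replicate 2. The site in CTCFL, the germline paralogue of CTCF, had 7.27 and 12.2 in these libraries. Next to MAU2, a part of the cohesin loader, the folds were 3.70, 16.6 and 11.4 in MCF10A replicates 1 and 2 and G12V replicate 2. Of 12 established p53 targets, 9 had a site within 100 kb and none within 10 kb.

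HOX genes, whose clusters are divided into domains at CTCF sites, had a partly shared site within 100 kb for 38 of 39 and within 10 kb for 15 (38.5%), which are counts of neighbouring genes that share 7 sites. The site between HOXD8 and its neighbours (chromosome 2, 176991696 to 176992163) was the strongest of these in G12V replicate 2, with folds of 10.0, 16.9 and 29.7 in the MCF10A libraries and G12V replicate 2 and a CTCF motif. Another one nearest HOXD12 (chromosome 2, 176962294 to 176962707), also with a motif, had 6.82, 9.52 and 6.41. The other 5 had no CTCF motif. Of these, the HOXA3 intron site had folds of 10.0, 7.56 and 17.5 in MCF10A replicate 2 and the G12V libraries, and the site in an exon of HOXC10 had 5.14 and 6.34 in replicates 2. All 7 HOX sites had a peak in both replicates 2, as did 96.6% of all partly shared sites.

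Imprinted genes, several of which are governed by CTCF at methylated control regions, had a partly shared site within 100 kb for 11 of 23 (47.8%) and within 10 kb for 5. IGF2, the growth factor gene of the best-studied imprinted CTCF locus, had an intronic site with a motif 1702 bp from a TSS (chromosome 11, 2177664 to 2178078), at folds of 4.44, 10.8 and 8.45 in MCF10A replicates 1 and 2 and G12V replicate 2. PLAGL1 had an intronic one of 8.04, 8.57 and 7.32 in the same libraries. KCNQ1 (6.0 and 6.97), GRB10 (10.5 and 5.72) and BLCAP (11.5 and 12.05) had sites of both replicates 2 alone, none with a CTCF motif. None of these 5 sites had a peak in G12V replicate 1, which had one at only 24.3% of all partly shared sites. Other CTCF sites at these genes were not examined.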

How the data were processed

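Chromatin immunoprecipitation of CTCF and p53 was sequenced in 8 libraries, 2 for each factor in parental MCF10A and in G12V cells. The authors aligned reads to hg19 with Bowtie, kept unique alignments and called peaks for each library against input with MACS2 at default settings and its human genome size (the versions used for ChIP-seq are not given in the sources used here). The study itself combined replicates, whereas the lists here are 1 per library. Each deposited list gives the summit's fold enrichment, its −log10 p and −log10 q, and a score that is the whole-number part of 10 times the −log10 q, all used as deposited by the authors. Summit reads, local background and depth were solved from fold and −log10 p.

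Sites were merged and classed with Python 3.11.15, numpy 2.4.6 and pandas 2.3.3. Start sites came from GENCODE release 44 on GRCh37, for all transcripts of protein-coding genes, and 0 peaks ran past the end of a GRCh37 chromosome. Windows of 150 bp for motif searches were centred on the summit of the peak with the highest −log10 p at a site, and a p53 overlap needed 1 bp. Differences in share were tested by Fisher's exact test, two-sided (SciPy 1.17.1), and p-values adjusted by the Benjamini-Hochberg method over 20 tests of sequence and position features or over 23 chromosomes, with exact Clopper-Pearson 95% intervals. The steps were tested on simulated data. Named sites were the 2 strongest by mean rank of each combination of lists, those within 10 kb of a listed gene, the extremes of fold, and those at the borders of the rule. The sites and gene lists were chosen with earlier results of these data known. Alternatives were windows around summits, a stricter q, lists of equal length, other promoters, genes and motif definitions, and leaving out each CTCF library. The values of 1 site that this rule names are not reported here.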

Additional observations from a re-analysis of the deposited data

How the results depend on the processing

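The deficit of CTCF motifs against constitutive sites kept its direction and its side of the threshold under all 13 alternatives (-17.4 points with a position matrix to -7.82 with lists of equal length). The difference in AP-1 motifs from constitutive sites did so under all 10 (0.815 points with lists of equal length to 1.57 with a window of 300 bp). Lists of equal length gave 5262 partly shared sites, put 14.03% of them in both replicates 2 alone and left 9 chromosomes called, by construction with fewer peaks. A −log10 q of at least 5 gave 51.02% in both replicates 2 alone. Leaving out each CTCF library gave 2367 to 7304 partly shared sites and 5 to 13 called chromosomes, and 96.2% to 99.4% in both replicates 2 alone, the last by construction and with no value where a replicate 2 was left out. The gene body difference from constitutive sites was 3.66 points with promoters of 5000 bp to either side and 2.62 points with genes of any type, both past the threshold, and -0.633 to 2.62 points without 1 library. The p53 difference was 0.0274 points, of the opposite sign, for p53 sites in at least 2 lists, and -0.357 to 0.0556 points without 1 library. The cause was not tested for the gene body and p53 differences. A promoter drawn from 1 start site per gene was an alternative chosen after seeing the data, and it turned none of these directions.

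No paired analysis was possible because every test compared counts of sites between classes that are defined over all 4 CTCF lists, so that no sample was a unit of a test. Fold ratios between libraries of the same replicate number are given as a description only. With 2 libraries per cell type of very different list length, absence from a list does not show absence of binding. The part of depth and of enrichment in list length was not tested. The p53 overlaps rest on 28 sites.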
